A study of Mus musculus with 2 samples.

Results

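The genes described here are 10 members of the gp130 cytokine and STAT3 pathway, taken by symbol from 23950 genes in the expression tables of an optic nerve RNA-seq study. They are the ligands Cntf and Lif, the receptor chains Il6st, Lifr, Cntfr and Osmr, the kinases Jak1 and Jak2, the transcription factor Stat3 and its feedback inhibitor Socs3. Each symbol had 1 entry in both tables, and all 10 were measured. The study compared optic nerves taken whole from mice aged 12 days after birth (postnatal day 12), with 1 library per group and a strain background given as mixed. The control group was Hdac3f/+; Olig1-cre and the Hdac3 cKO group was Hdac3f/f; Olig1-cre. Both groups therefore carried the Cre recombinase and at least 1 floxed Hdac3 allele. Olig1-cre is expressed from the Olig1 gene of the oligodendrocyte lineage, and the expression values do not show which cells lost Hdac3. How many animals went into each library is not stated in the labels. By its title the study concerns the oligodendrocyte and astrocyte fate choice.

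Cytokines of this family signal through gp130, the shared receptor chain encoded by Il6st. CNTF binds its own alpha receptor, CNTFR, and then engages LIFR and gp130, while LIF uses LIFR and gp130 without CNTFR, and oncostatin M pairs OSMR with gp130. The receptor chains carry JAK kinases, which phosphorylate STAT3, and STAT3 then enters the nucleus and activates target genes. In glia the pathway is known for promoting astrocyte genes such as Gfap, and CNTF and LIF are also survival factors for oligodendrocytes. SOCS3 is induced by STAT3 and binds gp130 and the JAKs to end the signal.

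The promoters of both ligands and of the feedback gene are shown because they are the members whose upstream sequence held a searched motif. All 10 members matched the RefSeq promoter table (GRCm38.p6), in 16 windows of 300 bases each, counted from 250 bases before to 50 bases after a start. STAT dimers bind TTCNNNGAA, and AP1, a Fos and Jun factor, binds TGANTCA. The AP1 motif was added to the search after the Cntf sequence had been seen. Both strands were searched, and no matches overlapped. Capitals mark the matches in the 250 bases before each start, written 5′ to 3′ on the strand of the gene. The Cntf stretch is chr19:12765633-12765882 on the minus strand, the Lif stretch chr11:4257318-4257567 on the plus strand, and the Socs3 stretch chr11:117969367-117969616 on the minus strand, all in GRCm38.p6.
Cntf: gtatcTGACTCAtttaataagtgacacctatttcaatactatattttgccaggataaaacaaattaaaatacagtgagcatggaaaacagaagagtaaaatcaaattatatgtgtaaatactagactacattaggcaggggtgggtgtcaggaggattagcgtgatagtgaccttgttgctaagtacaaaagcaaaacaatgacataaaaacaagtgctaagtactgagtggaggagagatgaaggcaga
Lif: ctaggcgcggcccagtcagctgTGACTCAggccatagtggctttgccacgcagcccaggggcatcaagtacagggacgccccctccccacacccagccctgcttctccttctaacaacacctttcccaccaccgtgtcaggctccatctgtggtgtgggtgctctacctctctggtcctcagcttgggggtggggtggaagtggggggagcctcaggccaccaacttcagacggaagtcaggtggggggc
Socs3: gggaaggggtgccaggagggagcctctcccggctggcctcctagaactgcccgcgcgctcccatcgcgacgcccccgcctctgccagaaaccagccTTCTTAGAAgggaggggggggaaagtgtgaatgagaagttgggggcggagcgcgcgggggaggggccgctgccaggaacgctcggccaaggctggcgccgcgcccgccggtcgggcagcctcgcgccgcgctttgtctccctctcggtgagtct
Of the 10 members, only Socs3 held TTCNNNGAA in a window (TTCTTAGAA, from 154 bases before the start), against 9.55% of 27025 genes in the table. TGANTCA was present for 3 members, against 8.97% of genes. These 3 include Cntf, whose sequence had been seen before this motif was chosen, so the count is no result about the members. TGANTCA lay from 245 bases before the start in Cntf, from 228 bases before it in Lif, and in the transcribed bases of the Osmr window. The 10 members had 16 windows, and the 27025 genes had 32851. A match describes the letters of the window and not a bound site.

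The 2 libraries differed in ways that touch every comparison below. Deposited FPKM (a fragment count normalised to the length of the transcript and the size of the library) summed to 441867 in the library labelled control and 557861 in the library labelled cKO, and read depth was not given. Gfap enters the control sum at 3997 FPKM but the cKO sum at 0, because no cKO estimate was given for it. Scaling to equal FPKM sums uses these values as they stand. Genes with an OK status in the pair of tables and a minimum of 1 FPKM in either were tested, 14154 in all. The difference is log2 of cKO over control after adding 1 to each FPKM, a scale that understates changes of low genes. Its median over all tested genes was 0.12, with a middle 50% of -0.17 to 0.43. A gene was counted when it differed at least 2-fold on this scale and the intervals deposited with the values did not overlap, which 4.73% of tested genes did as higher in the library labelled cKO and 4.51% as lower. Of the counted genes, 51.2% were higher, a share of 36.6% once differences were centred on their median and of 18.3% with the libraries scaled to equal FPKM sums. With 1 library per group there is no test, and the differences are between libraries, not genotypes. Hdac3 measured 36.4 FPKM in the library labelled control and 38.0 in the library labelled cKO, so its level over the whole gene does not check the labels.

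All 10 members had a difference above 0, higher in the library labelled cKO, on the deposited scale, as did 61.4% of tested genes, and 1 of them, Cntf, met the 2-fold rule. None of the 10 was lower by the rule. The median log2 difference of the members was 0.55, against 0.12 for all tested genes. The share of 1 in 10 stands beside a background of 4.73% and is no result about the members as a group. For all 10, the cKO interval lay above the control interval, which held for 38.4% of tested genes. The size of the difference was uneven along the pathway. Cntf, Il6st, Osmr, Lif and Socs3 had log2 differences of 0.73 to 1.12, above the upper quartile of all tested genes, while Jak1, Cntfr, Lifr, Jak2 and Stat3 lay between 0.14 and 0.37. In RNA of whole nerve, more cells of a type and more RNA per cell cannot be told apart. With the libraries scaled to equal FPKM sums, 6 of 10 members remained above 0, and the median of all tested genes moved to -0.16.

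**Figure D1:**
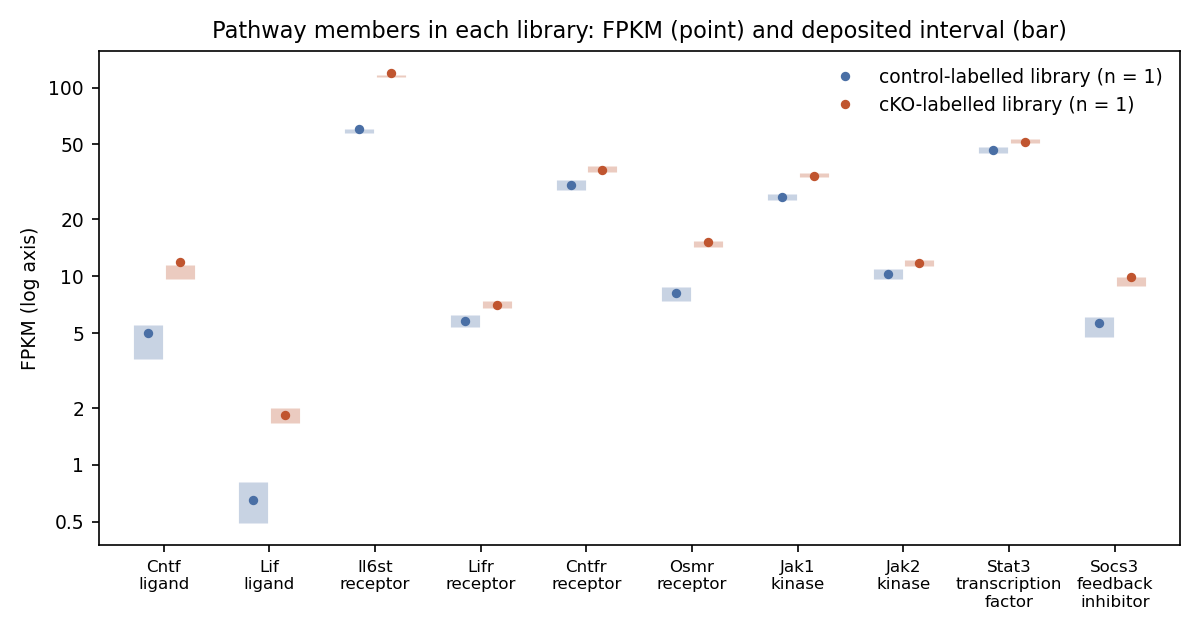
FPKM of the 10 members (x axis, with role) on a log axis, in the library labelled control (blue) and the library labelled cKO (orange), 1 library each. Points are the deposited FPKM and shaded bars the deposited intervals, and all 10 orange bars lie above their blue bars, with Il6st highest and Lif lowest in both libraries.

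The ligand genes had the lowest levels of the 10 in the library labelled control, although the interval of Cntf overlapped that of Socs3. Cntf (chromosome 19, 12838017 to 12840122, mm9), which encodes ciliary neurotrophic factor, was at 4.98 FPKM in that library, with an interval of 3.64 to 5.53. It measured 12.0 FPKM in the library labelled cKO, above its own interval of 9.63 to 11.5. The FPKM ratio was 2.40, and the interval bounds give 1.74 to 3.15. The log2 difference was 1.12, and 4.10% of tested genes had a larger one. Cntf fell short of the rule when differences were centred on their median (0.997, just under the 2-fold size), when the libraries were scaled to equal FPKM sums (0.81) and with a pseudocount of 5 (0.77). Taking the interval midpoint in place of FPKM gave 1.05, past the rule.

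The Cntf locus is shared with a read-through gene model, so the assignment of reads between them bears on its value. Zfp91Cntf joins the upstream gene Zfp91 to Cntf and overlaps the whole Cntf locus. It measured 0.0911 FPKM in the library labelled control and 0.260 in the library labelled cKO, far below Cntf in both. Zfp91, whose locus does not overlap Cntf and which was singled out after its values were seen, was at 23.1 FPKM in both libraries (log2 0.00). With the libraries scaled to equal FPKM sums, Zfp91 was at -0.32 and Cntf at 0.81.

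Lif (chromosome 11, 4157570 to 4172517), the leukemia inhibitory factor gene, had the lowest level of the members. It measured 0.651 FPKM in the library labelled control (interval 0.493 to 0.810) and 1.83 in the library labelled cKO (1.67 to 1.996). It reached the minimum of 1 FPKM only through the library labelled cKO. The FPKM ratio of 2.81, with interval bounds of 2.06 to 4.05, was the largest of the 10, while the log2 difference with 1 FPKM added was 0.78 and did not meet the rule. With a pseudocount of 0.1 it was 1.36 and met the rule. Per length, Cntf was several fold more abundant than Lif in each library, with a ratio of 7.64 in control and 6.53 in cKO.

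Among the receptor chains, Il6st and Osmr were further apart between the libraries than Lifr and Cntfr. Il6st (chromosome 13, 113254277 to 113297068), the gp130 gene, was the most abundant member in both libraries. It measured 60.6 FPKM in the library labelled control (interval 57.3 to 60.5) and 119 in the library labelled cKO (114 to 116). Each value exceeds the upper bound of its interval. The ratio was 1.96 (1.88 to 2.03 from the interval bounds), and the log2 difference of 0.96 lay just under the 2-fold size. Of tested genes, 6.46% had a larger difference.

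Osmr (chromosome 15, 6763576 to 6824313), the oncostatin M receptor chain, measured 8.10 FPKM in the library labelled control (interval 7.37 to 8.72) and 15.2 in the library labelled cKO (14.3 to 15.4). The ratio was 1.88 and the log2 difference 0.83, also short of the rule. Lifr (chromosome 15, 7079571 to 7147489), the LIF receptor chain, was at 5.80 FPKM (interval 5.36 to 6.25) and 7.06 FPKM (6.76 to 7.41) in control and cKO. Its log2 difference was 0.25. Cntfr (chromosome 4, 41604528 to 41644123), the alpha chain that gives CNTF its specificity, was at 30.5 FPKM (28.6 to 32.5) and 36.7 FPKM (35.5 to 38.3), a log2 difference of 0.26. The intervals of Lifr and Cntfr were separate between libraries, but their differences lay inside the middle 50% of all tested genes. Both turned below 0 with the libraries scaled to equal FPKM sums, at -0.04 for Lifr and -0.065 for Cntfr.

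The balance of receptor transcripts differed between the libraries. Il6st was 10.5 times as abundant as Lifr per length in the library labelled control and 16.9 times in the library labelled cKO. Against Cntfr the ratio was 1.99 in control and 3.24 in cKO. Against Osmr it was nearly the same, 7.48 and 7.82, so these chains differed between libraries by a similar factor. Osmr over Lifr was 1.40 in control and 2.16 in cKO. Such ratios within a library do not depend on how the libraries are scaled.

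**Figure D2:**
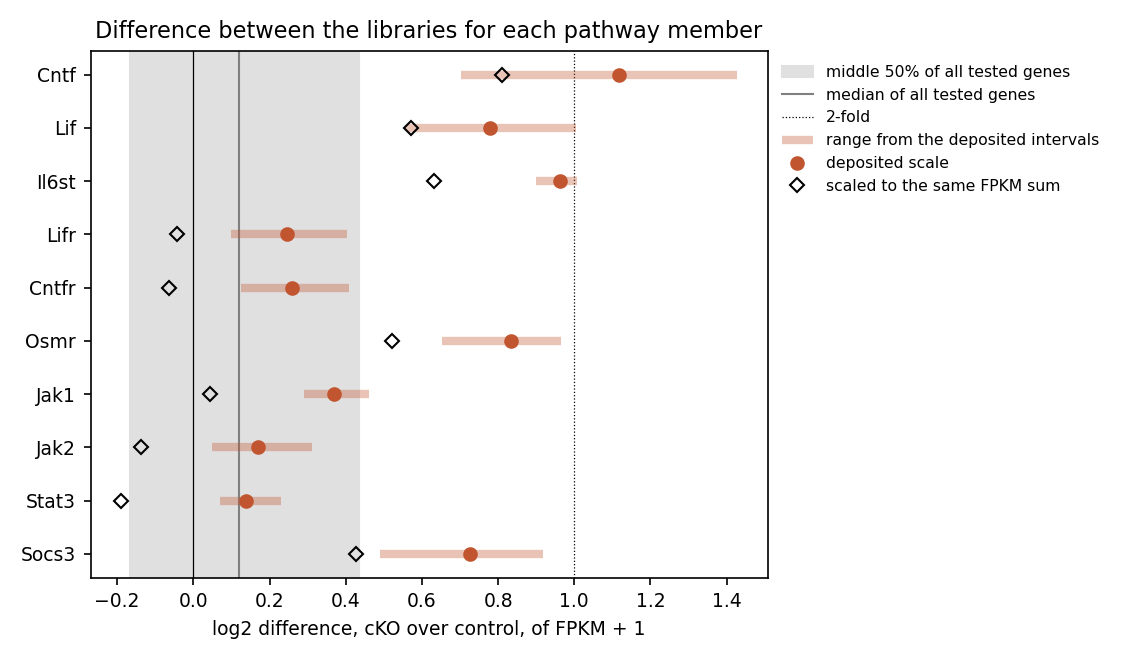
Log2 difference (x axis, cKO over control, of FPKM + 1) of each member on the deposited scale (points), with the range the deposited intervals give (bars) and the value with the libraries scaled to equal FPKM sums (open diamonds). The grey band and line are the middle 50% and median of all tested genes on the deposited scale. Cntf alone lies past the dotted 2-fold line, and 4 diamonds lie below 0.

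The kinase genes and Stat3 were close between libraries. Jak1 (chromosome 4, 100824578 to 100937887), a main kinase of gp130, measured 26.2 FPKM in the library labelled control (interval 25.3 to 27.4) and 34.1 in the library labelled cKO (33.8 to 35.2), a log2 difference of 0.37. Its locus overlaps that of Raver2 by 397 bases in the tables, and Raver2 was at 3.25 and 5.52 FPKM. Jak2 (chromosome 19, 29326292 to 29387570), a kinase that gp130 shares with many other cytokine receptors, was at 10.3 FPKM (9.66 to 11.0) and 11.7 FPKM (11.4 to 12.2), a log2 difference of 0.17. Jak1 was more abundant than Jak2 in both libraries, 2.54 times in control and 2.91 times in cKO.

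Stat3 (chromosome 11, 100748123 to 100800825) was the second most abundant member in both libraries. It measured 46.6 FPKM in the library labelled control (interval 45.1 to 48.6) and 51.4 in the library labelled cKO (51.1 to 53.1). Its log2 difference of 0.14 was the smallest of the 10 and close to the median of all tested genes, and 48.1% of tested genes had a larger one. With the libraries scaled to equal FPKM sums it was -0.19, and Jak2 was at -0.14. FPKM is a transcript level and does not show how much STAT3 protein was phosphorylated.

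Socs3 (chromosome 11, 117827400 to 117830680), the gene with the TTCTTAGAA match shown above, differed more than Stat3. It measured 5.62 FPKM in the library labelled control (interval 4.77 to 6.05) and 9.96 in the library labelled cKO, just above its own interval of 8.89 to 9.91. The ratio was 1.77 (1.47 to 2.08 from the interval bounds) and the log2 difference 0.73, short of the rule. Socs3 transcript per Stat3 transcript was 0.121 in control and 0.194 in cKO, per length.

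The order of levels was the same at both ends in the libraries. Il6st, Stat3, Cntfr and Jak1 held the top 4 places in both, in that order, and Lif the last. In the library labelled control Jak2, Osmr, Lifr, Socs3 and Cntf followed, and the intervals of Lifr and Socs3, and of Socs3 and Cntf, overlapped. In the library labelled cKO the order was Osmr, Cntf, Jak2, Socs3 and Lifr, and only the intervals of Cntf and Jak2 overlapped among neighbours. Cntf thus stood below Jak2 in control and beside it, with overlapping intervals, in cKO.

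Beyond these members, 55 further pathway genes in 6 lists were examined, of which 47 were tested, 7 were higher by the rule (background 4.73%) and 0 were lower. The other gp130 ligands were low. Of 9, 5 were tested and 0 met the rule, with a median log2 difference of 0.74, or 0.15 over the list with no minimum FPKM. With a pseudocount of 0.1, 2 of them were higher by the rule (background 8.17%). The most abundant were Ctf1, the cardiotrophin gene, at 2.92 FPKM in control against 5.99 in cKO (log2 0.84), and Clcf1, a further ligand of CNTFR, at 2.36 and 4.60 (log2 0.74). Il6, the gene of the family's founding cytokine, was at 0.0410 and 0.0130 FPKM, and Osm, the OSMR ligand, at 0.213 and 0.134. Il6, Osm, Ctf2 and Il27 did not reach 1 FPKM in either library. Il6 and Osm were named after their values were seen.

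Both tested receptors of the remaining family members were higher by the rule (background 4.73%), out of 4 on the list. Il6ra, the IL6 receptor, measured 3.77 FPKM in the library labelled control (interval 3.22 to 4.18) and 9.42 in the library labelled cKO (8.56 to 9.51), a log2 difference of 1.13. Il11ra1, the IL11 receptor, was at 12.5 FPKM (10.5 to 13.3) and 27.5 FPKM (24.1 to 26.4), a log2 difference of 1.08. Of these, 1 met the rule after centring on the median and 0 with the libraries scaled to equal FPKM sums or with a pseudocount of 5.

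Of the other JAK and STAT genes, 7 of 8 were tested, with a median log2 difference of 0.48 and 3 values below 0. Stat6, the mediator of IL4 signals, was higher by the rule at 9.97 FPKM in control against 21.2 in cKO (log2 1.02). It did not meet the rule after scaling to the same upper quartile or FPKM sum, after centring, with a pseudocount of 5 or at interval midpoints. Stat2, which acts in the interferon response, was at 12.7 and 8.94 FPKM (log2 -0.46). Of 14 other inhibitors of JAK and STAT signalling, 0 met the rule, with a median of 0.35 and 5 values below 0. Pias2, a SUMO ligase, was at 15.2 and 14.4 FPKM (log2 -0.08), and Ptpn1, a tyrosine phosphatase, at 13.0 and 12.1 (log2 -0.10).

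Adaptors that carry gp130 signals to ERK and PI3K instead of STAT3 had a median log2 difference of -0.31, and 0 of 6 met the rule. Ptpn11, the SHP2 phosphatase that binds gp130, measured 63.6 FPKM in the library labelled control and 46.2 in the library labelled cKO (log2 -0.45). Gab1, a docking protein, was at 49.8 and 25.6 FPKM (log2 -0.93), just short of the rule on the deposited scale. Under each of the 3 other scalings 1 adaptor was lower by the rule. Of 14154 tested genes, 696 were lower with equal upper quartiles, 761 with centring and 960 with equal FPKM sums. The count of 1 is no result about the adaptors. Shc1 was the exception in sign, at 22.3 and 41.9 FPKM (log2 0.88), and was named after its values were seen.

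Of 14 STAT3 target genes, 13 were tested, with a median log2 difference of 0.72. By the rule 4 were higher (background 4.73%) and 0 lower (background 4.51%). Cebpb, a transcription factor of the acute phase response, measured 3.53 FPKM in the library labelled control and 14.3 in the library labelled cKO (log2 1.75). Its relative Cebpd was at 4.79 and 12.0 FPKM (log2 1.17). Timp1, a metalloproteinase inhibitor, was at 11.0 and 26.6 FPKM (log2 1.20), and Lcn2, a secreted lipocalin of reactive astrocytes, at 1.39 and 3.89 (log2 1.03).

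The most abundant targets were Serpina3n, a protease inhibitor, at 223 and 421 FPKM (log2 0.91), and Gfap, the astrocyte filament gene. For Gfap the control table gives 3997 FPKM, while the cKO table gives the status HIDATA (too many fragments to estimate) and lists the gene at 0, so no difference can be given. Myc, at 8.83 and 6.07 FPKM (log2 -0.48), and Bcl2l1, at 29.7 and 28.4 (log2 -0.06), lay below 0 and were named after their values were seen. With a pseudocount of 5 (background 1.99%) or with the libraries scaled to equal FPKM sums (background 1.52%), 1 target was higher by the rule. Most of these genes are also targets of other factors.

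**Figure D3:**
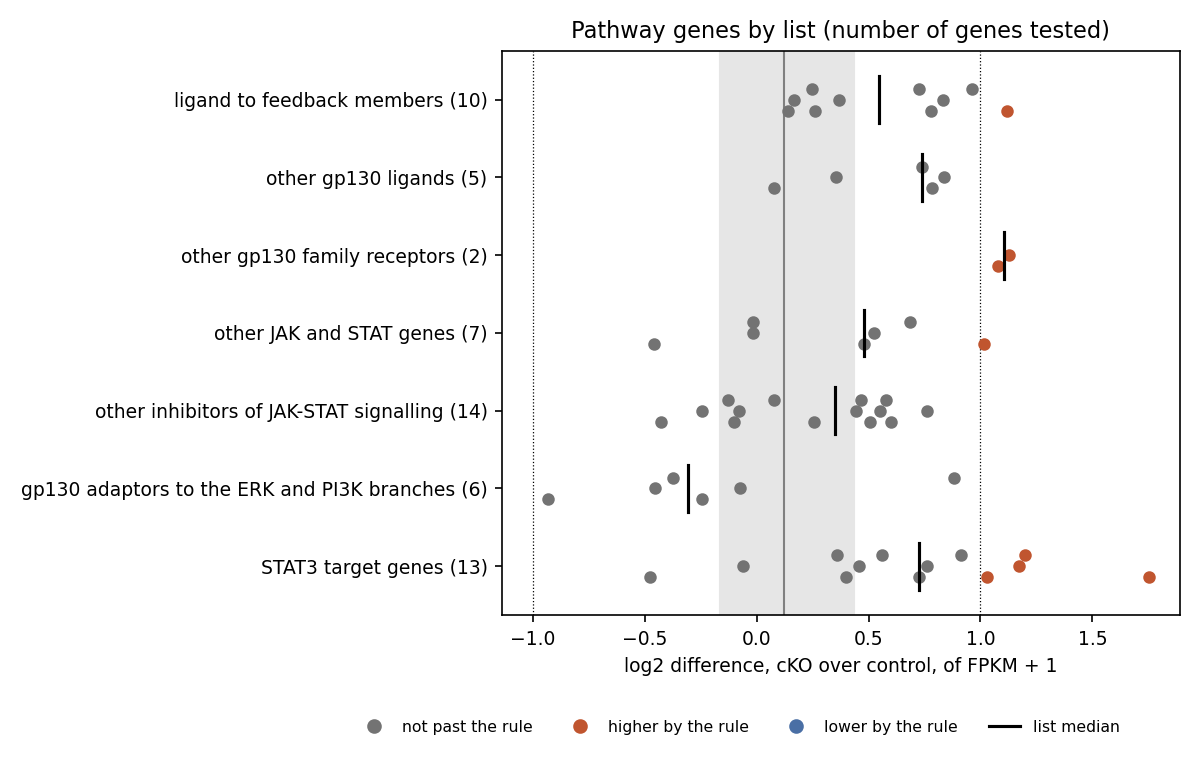
Log2 difference (x axis, cKO over control, of FPKM + 1) of the tested genes in each pathway list, 1 point per gene, with black bars at list medians and the grey band and line at the middle 50% and median of all tested genes. Orange points are higher by the rule; the STAT3 target median is 0.72 and the adaptor median -0.31.

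Markers of several cell types also differed between the libraries, and their part in the member differences was not tested. Over all tested genes, 4.73% were higher and 4.51% lower by the rule, beside which the marker counts stand. All 8 oligodendrocyte markers were lower by the rule, and their summed FPKM went from 27255 in control to 3620 in cKO, with Mbp at 15976 and 2013. Of 5 oligodendrocyte precursor markers, 2 were lower, with a summed level of 347 and 154 FPKM. Gpr17 was at 215 and 37.2, and the other 4 summed to 132 and 117. Lhfpl3 was also lower by the rule, at 34.7 and 14.7 (log2 -1.18). Cspg4 was at 9.93 and 6.93 (log2 -0.46), short of the rule. Ptprz1 was at 51.8 and 56.4, and Pdgfra at 35.4 and 38.8. Pdgfra and Cspg4 were picked for mention with their levels already known. Of 9 tested astrocyte markers, 2 were higher and 8 lay above 0, with a median log2 difference of 0.56. Their summed FPKM without Gfap was 1127 and 1899, and Slc1a3, a glutamate transporter, was at 288 and 481.

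Meningeal fibroblast markers were higher for 6 of 7 genes, with summed levels of 1813 FPKM in control and 4272 in cKO and a median of 1.29. Igf2 was at 679 and 1665 FPKM, and Col1a2 at 335 and 704. Mural cell markers summed to 251 and 452 FPKM, with 1 of 6 higher, and Vtn was at 160 and 312. Microglia markers summed to 303 and 488, with 0 of 9 past the rule and C1qb at 69.8 and 125. Their median log2 difference was 0.69, with 7 above 0 and 2 below. Those below were Cx3cr1, at 16.2 FPKM in both libraries, and P2ry12, at 14.3 and 12.4 (log2 -0.19). Both were named after their values were seen. Endothelial markers summed to 134 and 166 FPKM, with 0 of 7 past the rule, and Cldn5 was at 64.1 and 68.5. Neuron markers summed to 40.9 and 58.6 FPKM, with 1 of 7 higher, Nefl, at 11.6 and 29.5. Without Nefl they summed to 29.3 and 29.1 FPKM, and Tubb3 was at 12.7 and 6.24 (log2 -0.92). With the libraries scaled to equal FPKM sums, 1.52% of tested genes were higher by the rule. On that scale 3 meningeal fibroblast markers, 1 astrocyte marker, 0 mural cell markers and 0 neuron markers were higher. There 1 neuron marker, Tubb3, was lower (log2 -1.20), as were 960 of 14154 tested genes.

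Markers of Schwann cells, a known source of Cntf in peripheral nerve, were low. Of 5, 2 were tested and 0 met the rule, and they summed to 3.496 FPKM in control and 6.01 in cKO. Prx, a gene of the peripheral myelin sheath, was at 0.965 and 1.27 FPKM. No marker of these lists with the status OK was at exactly 0 in either library.

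**Figure D4:**
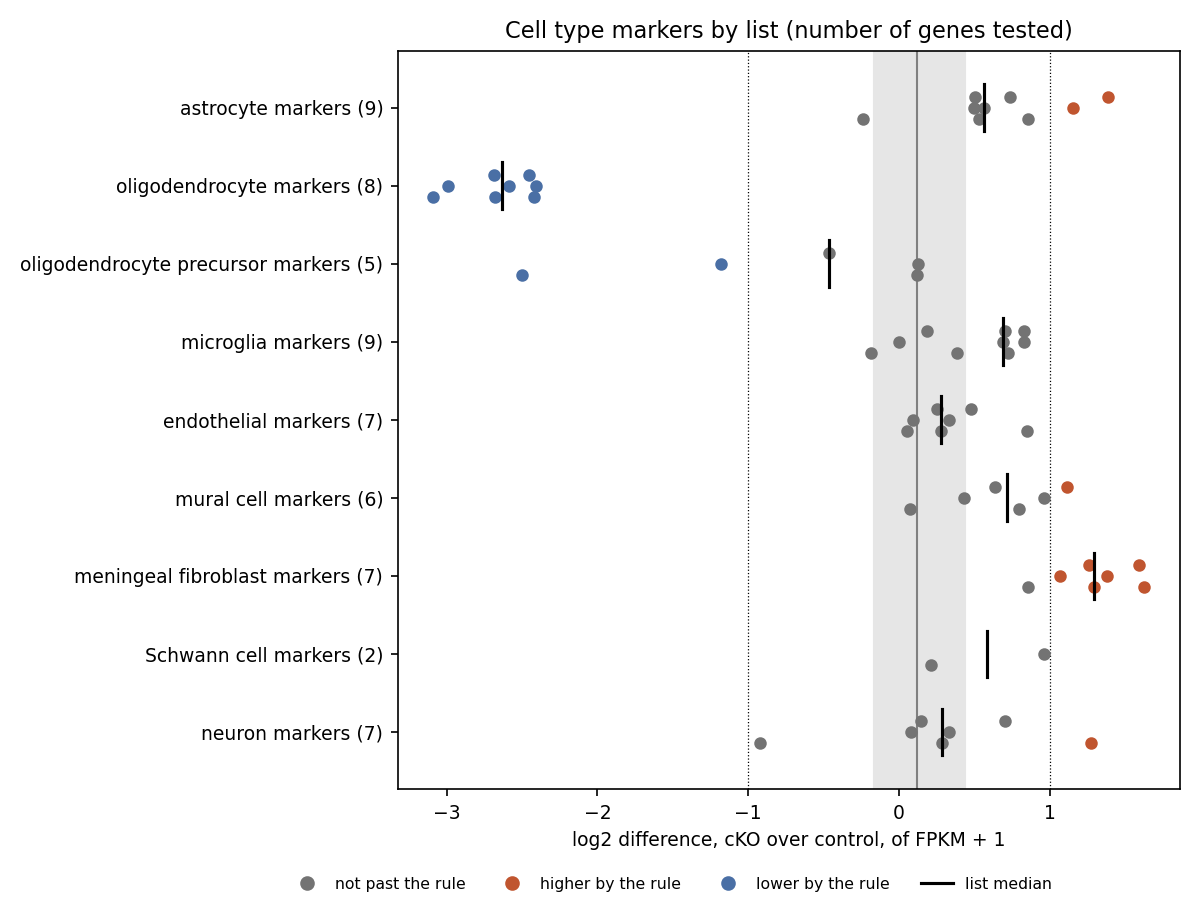
Log2 difference (x axis, cKO over control, of FPKM + 1) of the tested cell type markers, 1 point per gene, with black bars at list medians and the grey band and line at the middle 50% and median of all tested genes. Blue points are lower and orange points higher by the rule; all 8 oligodendrocyte markers and 6 of 7 meningeal fibroblast markers are past it.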

How the data were processed

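RNA-seq values of 2 optic nerve libraries were used, 1 per group. Per the file headers, the authors deposited FPKM per gene together with an interval and a status. CASAVA, TopHat, Cufflinks and the mm9 build are named in the submitters' processing notes, without versions. Annotation, strandedness and depth are not stated there. Libraries were made from Trizol-extracted total RNA with the Illumina TruSeq kit, per the labels' protocols. The deposited intervals excluded their own FPKM for 15.2% of tested genes in control and 32.1% in cKO, so they cover estimation error only in part, and no variation between animals.

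Entries were joined by symbol, start site group and locus, keeping the entry with the highest summed FPKM per symbol (24460 entries, 23950 symbols). The log2 difference used a pseudocount of 1 FPKM and the deposited scale. No p-value was computed. The members and gene lists were chosen with earlier results of these data known. Named were all members, pathway list genes past the rule, the most abundant 2 of each pathway list, and some markers that were abundant or past the rule. Not all markers past the rule are named. Genes named outside this are identified. The calling step was tested on simulated data with changes larger than 2-fold, no genes of low FPKM, and intervals that contained their own value. That check does not cover genes near the 2-fold size or at low FPKM. Python 3.11.15, pandas 2.3.3, numpy 2.4.6 and matplotlib 3.10.9 were used. Alternatives changed the pseudocount, scaling, minimum FPKM, entry choice, interval requirement and fold.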

Additional observations from a re-analysis of the deposited data

How the results depend on the processing

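Of 11 alternatives, 10 were planned and 1, the interval midpoint in place of FPKM, was chosen after seeing the data. The number of members higher by the rule (1) was 0 with a pseudocount of 5, with differences centred on their median and with libraries scaled to equal FPKM sums, 2 with a pseudocount of 0.1 (8.17% of tested genes) and 5 with a 1.5-fold size (15.98% of tested genes). The members' median log2 difference (0.55) was 0.43 after centring, 0.37 with a minimum of 5 FPKM (which leaves out Lif), 0.30 with a pseudocount of 5 and 0.24 after scaling to the same FPKM sum. Over all genes, 669 higher became 439 after centring, 1156 with a pseudocount of 0.1, 282 with a pseudocount of 5, 215 after scaling to the same sum and 2262 at 1.5-fold, and 638 lower became 339 with a pseudocount of 5, 960 after scaling to the same sum and 1253 at 1.5-fold. The cause of these shifts was not tested. No member was lower by the rule in any of the 11. The cKO interval lay above the control interval for 10 members on the deposited scale, 8 with equal upper quartiles, 7 with centring and 5 with equal sums (background 38.4%, 32.7%, 30.0% and 19.4%). Leaving out a replicate was not possible with 1 library per group, and read depth is unknown, so counting error cannot be separated from the deposited intervals.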
